A study of Mus musculus with 15 samples.

Results

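The genes described here are 10 known transcriptional targets of p53, chosen by name from the 56953 genes listed for every library: Cdkn1a, Ccng1, Btg2, Mdm2, Bax, Phlda3, Trp53inp1, Eda2r, Zmat3 and Gdf15. All 10 passed the filter on low counts, which left 17975 genes in total. Their mRNA was measured by RNA sequencing of primary hepatocyte preparations of mice, in 15 libraries that form 4 groups. These were wild-type (WT) mice given mineral oil (n = 4), WT mice given carbon tetrachloride, CCl4 (n = 3), ΔEGFR transgenic mice given mineral oil (n = 4) and ΔEGFR mice given CCl4 (n = 4). Hepatocytes convert CCl4 into a radical that injures the liver, and mineral oil is a usual carrier for it. The ΔEGFR transgene takes its name from EGFR, the receptor for epidermal growth factor. The labels do not say which species or part of the receptor it encodes or which promoter drives it, nor do they give strain, age, dose, length of treatment or the animal behind a library. P-values therefore measure the spread between these libraries, which may be technical in part.

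The transcription factor p53 is held low in resting cells by the ubiquitin ligase Mdm2 and accumulates after DNA damage, oxidative stress or disturbed ribosome assembly. It then binds its response elements and switches on genes that halt the cell cycle (Cdkn1a, Btg2) or that feed back on p53 itself (Mdm2, Ccng1). Other targets favour cell death or restrain survival signals (Bax, Phlda3, Trp53inp1, Eda2r), act on RNA (Zmat3) or are secreted (Gdf15). Several of all these genes are also reached without p53, Gdf15 by the integrated stress response and Btg2 by growth factor signals. In the liver these genes are known as markers of hepatocytes under toxic or genotoxic stress.

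The bases before the transcription start are shown for 5 of the genes, 4 because a p53 decamer, the 10-base unit of its response element, lay there and Btg2 because its levels did not follow those of the others. RefSeq promoter windows (build GRCm38.p6, 250 bases before to 50 after a start) were found for 8 of the 10 genes, 10 windows in all, and for neither Zmat3 nor Trp53inp1. The 250 bases before the start are printed 5′ to 3′ on the strand of the gene, and capitals mark the matches named after the sequences.
Cdkn1a, chr17:29090729-29090978, plus strand: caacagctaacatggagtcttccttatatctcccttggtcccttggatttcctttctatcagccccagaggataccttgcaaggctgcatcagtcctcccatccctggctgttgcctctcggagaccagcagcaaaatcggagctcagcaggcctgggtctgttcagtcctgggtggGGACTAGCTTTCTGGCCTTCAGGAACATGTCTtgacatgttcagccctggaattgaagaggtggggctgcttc
Bax, chr7:45466899-45467148, minus strand: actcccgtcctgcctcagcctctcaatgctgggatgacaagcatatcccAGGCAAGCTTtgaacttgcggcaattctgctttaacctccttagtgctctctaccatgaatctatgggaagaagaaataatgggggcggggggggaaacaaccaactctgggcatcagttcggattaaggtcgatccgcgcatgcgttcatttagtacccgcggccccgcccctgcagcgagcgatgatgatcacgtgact
Mdm2, chr10:117710759-117711008, minus strand: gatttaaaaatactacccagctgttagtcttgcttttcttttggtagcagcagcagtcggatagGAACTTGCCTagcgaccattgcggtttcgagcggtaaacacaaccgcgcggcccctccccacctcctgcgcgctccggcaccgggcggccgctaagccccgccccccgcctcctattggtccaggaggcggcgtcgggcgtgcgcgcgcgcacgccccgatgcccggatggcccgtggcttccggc
Ccng1, chr11:40755287-40755536, minus strand: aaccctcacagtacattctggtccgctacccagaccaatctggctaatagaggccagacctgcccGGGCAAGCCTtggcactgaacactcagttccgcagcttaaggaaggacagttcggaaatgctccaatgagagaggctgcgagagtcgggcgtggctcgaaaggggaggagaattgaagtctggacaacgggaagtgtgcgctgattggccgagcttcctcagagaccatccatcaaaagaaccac
Btg2, chr1:134079156-134079405, minus strand: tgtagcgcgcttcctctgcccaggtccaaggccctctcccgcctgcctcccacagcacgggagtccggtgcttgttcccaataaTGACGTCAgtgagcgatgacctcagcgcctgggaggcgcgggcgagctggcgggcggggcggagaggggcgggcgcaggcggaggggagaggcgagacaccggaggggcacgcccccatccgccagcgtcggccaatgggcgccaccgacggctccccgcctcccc
In the upstream one of its 2 windows, Cdkn1a held 2 matches to the p53 consensus decamer, at positions −73 to −64 and −51 to −42 (the start being 0). Its capitals run from the first through the second. The bases that directly follow the second match miss the consensus decamer in their first letter only, so they were not counted or marked. Bax held a decamer at −201 to −192, Mdm2 at −186 to −177 and Ccng1 at −185 to −176. Among all 32851 windows searched on both strands, 8.36% held a decamer, against 4 of the 10 windows of these genes. A full site, here 2 decamers with at most 13 bases between them, was found in 0.0731% of all windows and in 1 of the 10, that of Cdkn1a. Btg2 held no decamer in its window. Its capitals are 2 overlapping matches to the core of the cyclic AMP response element, TGACGT, on opposite strands, a core held by 7.51% of all windows and by no other window of these genes. The TATA box letters TATAAA, in 13.6% of all windows, were in that of Eda2r, and the AP-1 letters TGANTCA, in 7.81%, were in none. A match describes letters and does not show binding.

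Libraries held 51.7 to 155.4 M counts (M, megacounts), with 6 libraries at up to 61.9 M and 9 from 96.2 M. The mean was 125.65 ± 18.51 M (SD) in ΔEGFR mineral oil and 97.44 ± 32.64 M in ΔEGFR CCl4. In WT it was 78.62 ± 38.0 M in mineral oil and 88.23 ± 58.23 M in CCl4. The deeper libraries were those of ΔEGFR except CCl4 replicate 3, and in WT only mineral oil replicate 1 and CCl4 replicate 3. All 12 hepatocyte markers were detected in every library, and their summed level ran from 65472 to 200077 CPM, counts per megacount of the library. Markers of cells other than hepatocytes were also detected, at a lower level in most mineral oil libraries. The 15 macrophage markers summed to 46.2 to 2407 CPM in the 8 mineral oil libraries and to 2289 to 5950 CPM in the 7 CCl4 libraries. In the 13 stellate cell markers the sums were 39.4 to 264 and 229 to 894 CPM. Those of the 12 endothelial markers were 81.0 to 997 and 344 to 799 CPM, and those of the 9 cholangiocyte markers were 36.8 to 300 and 242 to 763 CPM. No marker of these lists was at 0 throughout a group. WT mineral oil replicate 1 stood apart, with neutrophil markers at 1862 CPM, above every other library, and with the highest mean log2 CPM over all markers of other cells (the other-cell score, 4.28, against −0.47 to 2.98 in the other mineral oil libraries and 3.13 to 3.90 in the CCl4 libraries). In such bulk samples fewer cells of a type and less RNA per cell cannot be told apart.

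Per transcript length, the 10 genes spanned a wide range of levels. Mean TPM (transcripts per mega-transcript, which allows for gene length) over the 15 libraries were highest for Btg2 (87.8 ± 63.8, SD), Gdf15 (62.4 ± 51.7), Cdkn1a (57.9 ± 46.1) and Bax (54.8 ± 30.6). Neighbours in the order of these 4 differed by less than the SD of either. Mdm2 (24.8 ± 11), Trp53inp1 (22.1 ± 10.7) and Ccng1 (20.6 ± 7.60) formed a middle range in which the order was likewise within the spread. Phlda3 (7.68 ± 6.41), Zmat3 (3.44 ± 1.89) and Eda2r (1.97 ± 1.41) were the lowest. By medians, but not by means, the place of Cdkn1a among these genes differed between treatments. Its median was 8 TPM in mineral oil, below those of Mdm2 (16.7), Trp53inp1 (15) and Ccng1 (14.1). In CCl4 it was 92.1 TPM, beside 79.7 for Gdf15, 77.8 for Btg2 and 75.8 for Bax. The mineral oil mean of Cdkn1a was 24.1 ± 33.1 TPM, above those of Mdm2 (17.4 ± 6.05), Ccng1 (14.9 ± 3.76) and Trp53inp1 (14.7 ± 7.92). Its order in mineral oil was thus within the spread.

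Cdkn1a encodes p21, the inhibitor of cyclin-dependent kinases that stops cells before S phase. It measured 8.98, 3.12, 8.70 and 55.9 CPM in WT mineral oil replicates 1 to 4 and 101, 114 and 109 CPM in the WT CCl4 libraries. In ΔEGFR it measured 18.3, 30.9, 113 and 3.98 CPM in mineral oil and 84.6, 49.2, 93.7 and 121 CPM in CCl4. The WT groups did not overlap, although WT mineral oil replicate 4 lay well above the other 3, whereas in ΔEGFR a single mineral oil library, replicate 3, reached the level of the CCl4 libraries. The mean was 19.2 ± 24.6 CPM in WT mineral oil and 108 ± 6.65 CPM in WT CCl4, a log2 fold change of 2.49 ± 0.97 (SE) that did not pass with edgeR (adjusted p = 0.109). For ΔEGFR the means were 41.5 ± 48.7 and 87.1 ± 29.6 CPM, and the log2 fold change was 1.07 ± 0.89 (adjusted p = 0.477). Averaged over both genotypes, the log2 fold change was 1.78 ± 0.66 (adjusted p = 0.0611). These outcomes depended on single libraries and on the tool. Without WT mineral oil replicate 4 Cdkn1a passed in WT (3.94 ± 0.92, adjusted p = 0.0225) and averaged (2.51 ± 0.57, adjusted p = 0.00885), and without ΔEGFR mineral oil replicate 3 it passed averaged (2.39 ± 0.62, adjusted p = 0.0136) but not in ΔEGFR (2.30 ± 0.89, adjusted p = 0.133). With all 15 libraries Cdkn1a passed in WT with DESeq2 (2.54 ± 0.91, adjusted p = 0.0306) and limma on log2(TPM + 1) (3.58 ± 0.94, adjusted p = 0.0224). Averaged it passed with DESeq2 (adjusted p = 0.0131), with limma (adjusted p = 0.00355) and with edgeR without a scaling factor (adjusted p = 0.0304).

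**Figure D1:**
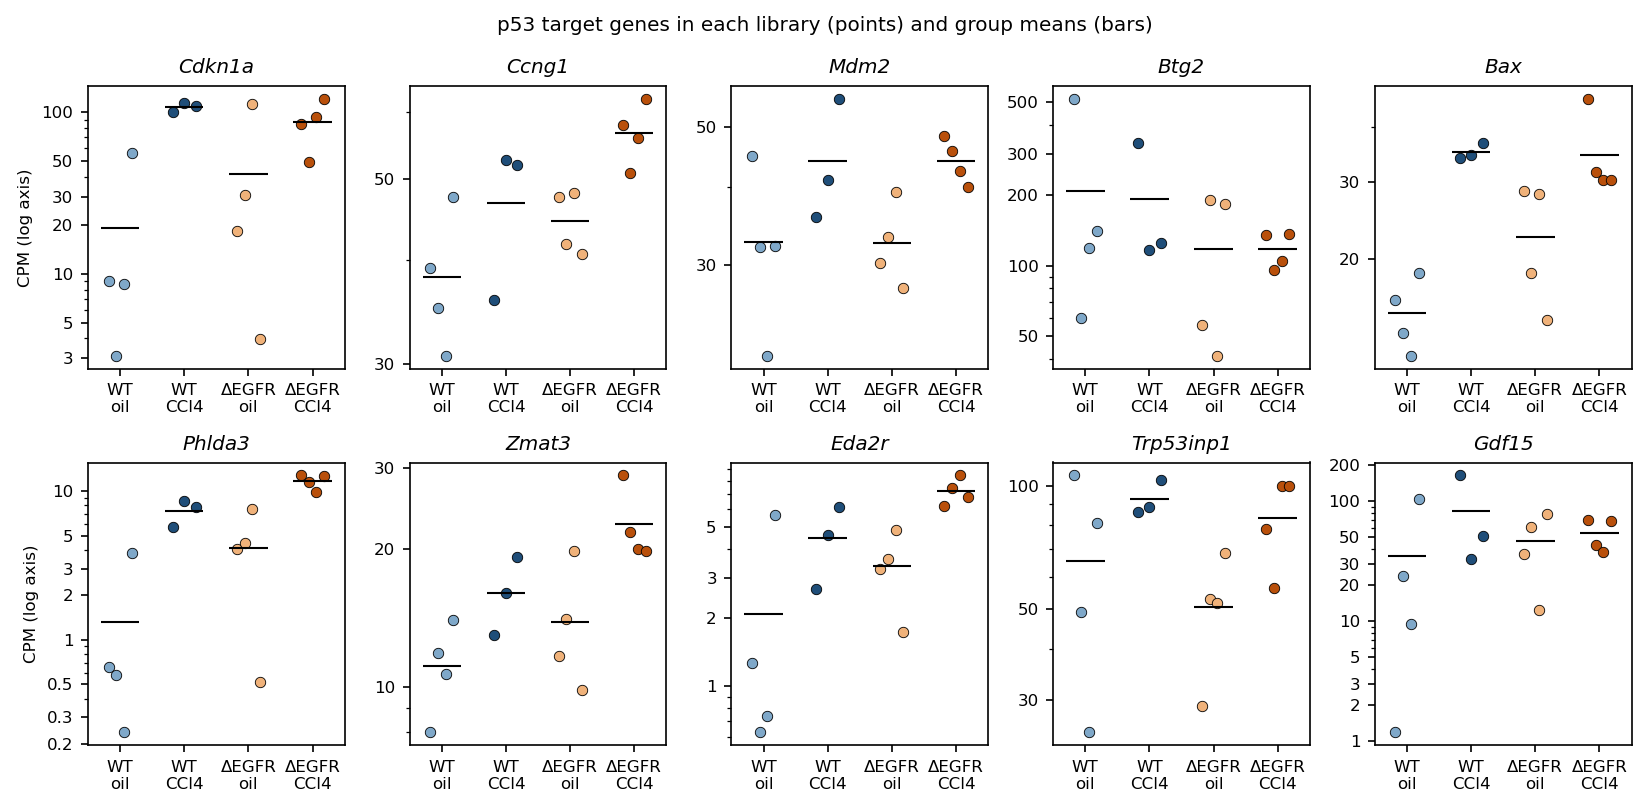
CPM of the 10 p53 target genes (log axes, which differ between panels) in each of the 15 libraries (points) and the mean of each group (bars). For Cdkn1a 7 of the 8 mineral oil libraries lie at or below 55.9 CPM, and the exception is at 113 CPM. The CCl4 libraries lie at 49.2 to 121 CPM, so WT mineral oil replicate 4 (55.9 CPM) is within their range too. For Btg2 the groups overlap throughout.

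Ccng1 encodes cyclin G1, which recruits protein phosphatase 2A to Mdm2. Its WT levels were 39.1, 35.0, 30.7 and 47.6 CPM in mineral oil and 35.8, 52.7 and 51.9 CPM in CCl4. The ΔEGFR levels were 47.5, 41.8, 48.1 and 40.6 CPM in mineral oil and 58.0, 50.8, 55.9 and 62.3 CPM in CCl4. The 4 ΔEGFR CCl4 libraries all lay above the ΔEGFR mineral oil libraries, while in WT CCl4 replicate 1 lay within the mineral oil range. It was the steadiest of the 10 genes, with a highest level 1.57 times the lowest over the 8 mineral oil libraries. The log2 fold change was 0.30 ± 0.16 in WT (adjusted p = 0.251) and 0.35 ± 0.15 in ΔEGFR (adjusted p = 0.179), and the averaged value of 0.32 ± 0.11 passed (1.25-fold, adjusted p = 0.0474).

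Btg2, an antiproliferative protein that promotes mRNA deadenylation, had no direction. It measured 517, 59.8, 119 and 141 CPM in WT mineral oil and 336, 117 and 125 CPM in WT CCl4. In ΔEGFR the values were 56.1, 191, 41.3 and 183 CPM in mineral oil and 136, 95.6, 105 and 137 CPM in CCl4. In both treatments the highest value came from WT replicate 1 (numbers follow the order of deposit and pair nothing), and the groups overlapped in both genotypes. Its log2 fold change was −0.12 ± 0.70 in WT (adjusted p = 0.927), 0.01 ± 0.65 in ΔEGFR (adjusted p = 0.996) and −0.06 ± 0.48 averaged (adjusted p = 0.943). The averaged value turned to 0.32 without a scaling factor and to 0.43 without WT mineral oil replicate 1.

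Mdm2, the ligase that marks p53 for degradation and is itself induced by it, differed little. Its levels were 44.9, 32.1, 21.5 and 32.2 CPM in WT mineral oil and 35.8, 41.1 and 55.4 CPM in WT CCl4. In ΔEGFR they were 30.2, 33.3, 39.3 and 27.6 CPM in mineral oil and 48.3, 45.7, 42.4 and 40.0 CPM in CCl4. The WT groups overlapped and the ΔEGFR groups did not. The CCl4 mean was 44.1 CPM in both genotypes (SD 10.1 in WT and 3.63 in ΔEGFR), against 32.7 ± 9.59 and 32.6 ± 5.06 CPM in mineral oil. A log2 fold change of 0.43 was found in each genotype (SE 0.22 in WT, adjusted p = 0.205, and 0.20 in ΔEGFR, adjusted p = 0.202), and averaged it passed (0.43 ± 0.15, 1.35-fold, adjusted p = 0.0443). In WT alone it passed without mineral oil replicate 1 (0.62 ± 0.20, adjusted p = 0.0332). The averaged calls of Mdm2 and Ccng1 were each lost without 11 of the 15 libraries in turn, with adjusted p of at most 0.125 for Mdm2 and 0.0948 for Ccng1.

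Bax, which forms pores in the mitochondrial outer membrane during apoptosis, rose in WT and was the only one of the 10 genes whose 8 mineral oil libraries all lay below its 7 CCl4 libraries. It measured 16.1, 13.5, 12.0 and 18.5 CPM in WT mineral oil and 34.0, 34.5 and 36.7 CPM in WT CCl4. In ΔEGFR it measured 28.5, 18.5, 28.1 and 14.5 CPM in mineral oil and 46.4, 31.6, 30.2 and 30.2 CPM in CCl4. The ΔEGFR mineral oil libraries 1 and 3 lay close under the CCl4 libraries. The mean went from 15 ± 2.85 to 35.1 ± 1.41 CPM in WT, a log2 fold change of 1.22 ± 0.24 (2.34-fold, adjusted p = 0.00873). In ΔEGFR it went from 22.4 ± 6.99 to 34.6 ± 7.92 CPM, and 0.63 ± 0.22 did not pass (adjusted p = 0.114). Averaged, Bax rose by 0.93 ± 0.16 (1.90-fold, adjusted p = 0.00176). The exons of Bax overlap those of the predicted gene Gm45808 on the same strand, which held 38 to 949 counts, so that reads could be split between them and the level of Bax is uncertain to that extent. Those of Cdkn1a overlap AC167363.2 on the other strand, with 0 to 7 counts.

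Phlda3 encodes a small protein that competes with the kinase Akt for membrane lipids and so restrains survival signals. It measured 0.654, 0.583, 0.239 and 3.81 CPM in WT mineral oil and 5.71, 8.5 and 7.81 CPM in WT CCl4. Its ΔEGFR levels were 4.07, 4.46, 7.50 and 0.522 CPM in mineral oil and 12.7, 11.5, 9.75 and 12.6 CPM in CCl4. Neither genotype's groups overlapped, but the spread in mineral oil was wide, with a highest level 31.3 times the lowest, against 2.22 times in CCl4. The log2 fold change was 2.48 ± 0.83 in WT (adjusted p = 0.0680) and 1.49 ± 0.77 in ΔEGFR (adjusted p = 0.246), and Phlda3 rose in the averaged comparison by 1.98 ± 0.57 (3.95-fold, adjusted p = 0.0206). Without WT mineral oil replicate 4 the values were 3.87 ± 0.71 in WT (adjusted p = 0.0105) and 2.68 ± 0.44 averaged (adjusted p = 0.00195). The WT value also passed without ΔEGFR mineral oil replicate 4 (2.47 ± 0.68, adjusted p = 0.0317), a library that enters it through the shared spread.

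Eda2r, the receptor of the cytokine ectodysplasin A2, had the lowest mean TPM of the 10 genes. Over the 8 mineral oil libraries its highest CPM was 9.04 times the lowest. It measured 1.26, 0.628, 0.738 and 5.67 CPM in WT mineral oil and 2.69, 4.62 and 6.12 CPM in WT CCl4. For ΔEGFR the values were 3.29, 3.64, 4.84 and 1.73 CPM in mineral oil and 6.22, 7.42, 8.46 and 6.80 CPM in CCl4. The WT groups overlapped through mineral oil replicate 4 and the ΔEGFR groups did not overlap. Log2 fold changes were 1.11 ± 0.64 in WT (adjusted p = 0.271), 1.10 ± 0.60 in ΔEGFR (adjusted p = 0.269) and 1.10 ± 0.44 averaged (adjusted p = 0.0770). Without WT mineral oil replicate 4 Eda2r passed in WT (2.33 ± 0.41, adjusted p = 0.00942) and averaged (1.71 ± 0.27, adjusted p = 0.00150). With all libraries the averaged value of Eda2r passed with DESeq2 (adjusted p = 0.0268), with limma (adjusted p = 0.00438) and without a scaling factor (adjusted p = 0.0237), and limma also called it in ΔEGFR (adjusted p = 0.0390).

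Trp53inp1, a nuclear and autophagy-linked protein that favours cell death, did not pass in any comparison with edgeR and all libraries. It measured 106, 49.2, 25.0 and 81.3 CPM in WT mineral oil and 86.1, 88.7 and 103 CPM in WT CCl4. In ΔEGFR it measured 29.0, 52.9, 51.8 and 68.3 CPM in mineral oil and 78.5, 56.2, 99.6 and 100 CPM in CCl4. In both genotypes the highest mineral oil library lay above the lowest CCl4 library. The averaged log2 fold change was 0.61 ± 0.27 (adjusted p = 0.110), from 0.50 ± 0.40 in WT and 0.73 ± 0.37 in ΔEGFR, and it passed without WT mineral oil replicate 1 (0.78 ± 0.25, adjusted p = 0.0255), without a scaling factor (1.02 ± 0.31, adjusted p = 0.0203) and with limma (1.18 ± 0.31, adjusted p = 0.00898).

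Zmat3, a zinc finger protein that binds RNA and regulates splicing and transcript stability, rose in the averaged comparison. It measured 7.99, 11.9, 10.7 and 14.0 CPM in WT mineral oil and 13, 16.0 and 19.2 CPM in WT CCl4. The ΔEGFR levels were 11.7, 14.1, 19.8 and 9.85 CPM in mineral oil and 28.9, 21.8, 20.0 and 19.8 CPM in CCl4. In ΔEGFR the groups touched without overlapping, since mineral oil replicate 3 lay next to CCl4 replicates 3 and 4. The log2 fold change was 0.53 ± 0.25 in WT (adjusted p = 0.180), 0.71 ± 0.23 in ΔEGFR (adjusted p = 0.0962) and 0.62 ± 0.17 averaged (1.53-fold, adjusted p = 0.0175). Without ΔEGFR mineral oil replicate 3 the ΔEGFR value passed (0.93 ± 0.22, adjusted p = 0.0374).

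Gdf15, a secreted relative of the transforming growth factors that acts on the brain stem to lower food intake, had the widest spread. It measured 1.18, 24, 9.42 and 104 CPM in WT mineral oil and 165, 32.7 and 51.0 CPM in WT CCl4. In ΔEGFR it measured 36.6, 60.7, 12.4 and 78.0 CPM in mineral oil and 69.7, 43.0, 37.9 and 68.9 CPM in CCl4. The groups overlapped in both genotypes, and over the 8 mineral oil libraries the highest level was 87.9 times the lowest. Log2 fold changes of 1.26 ± 1.01 in WT (adjusted p = 0.442), 0.23 ± 0.94 in ΔEGFR (adjusted p = 0.904) and 0.74 ± 0.69 averaged (adjusted p = 0.453) did not pass. Single libraries moved Gdf15 widely, in WT from 0.38 without WT CCl4 replicate 1 to 2.83 without WT mineral oil replicate 4 and averaged from 0.34 to 1.51 without the same libraries. With limma, where the averaged median over all genes was 0.30, the averaged value of Gdf15 passed (1.79 ± 0.67, adjusted p = 0.0468).

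**Figure D2:**
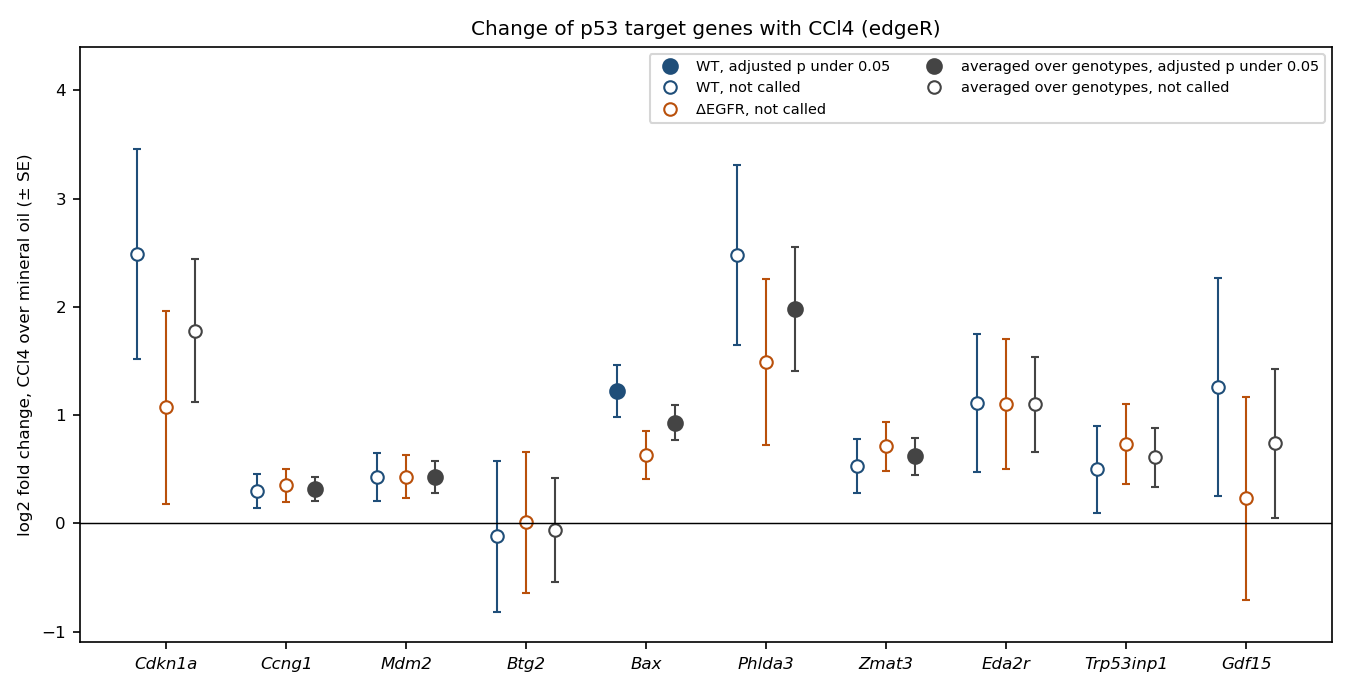
Log2 fold change of CCl4 over mineral oil, with its standard error as the bar, for the 10 genes in WT, in ΔEGFR and averaged over both genotypes. Filled points have an adjusted p under 0.05: Bax in WT (1.22), and Bax, Phlda3, Zmat3, Mdm2 and Ccng1 averaged (1.98 for Phlda3 to 0.32 for Ccng1).

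Counted over the 10 genes, the calls were few within a genotype. In WT 1 was called, Bax, where 5.31% of all genes tested were called higher and 7.20% lower, and 3 had an unadjusted p under 0.05 (28.9% of all genes). There DESeq2 called 3, where it called 20.2% of all genes, and limma on log2(TPM + 1) called 4 (17.9%). In ΔEGFR 0 of the 10 were called with edgeR (1.77% of all genes were called higher and 2.38% lower), 4 had an unadjusted p under 0.05 (24.7% of all genes), and DESeq2 called 2 (13.4% of all genes) and limma called 5 (12.6%). The averaged comparison called 5, all higher (Bax, Phlda3, Zmat3, Mdm2 and Ccng1), where 12.0% of all genes were called higher and 15.1% lower, and 8 had an unadjusted p under 0.05 (39.6% of all genes). In it DESeq2 called 7 of the 10 (33.4% of all genes) and limma called 9 (41.5%). The averaged comparison uses the same libraries as the WT and ΔEGFR comparisons, so these counts are not independent. The median log2 fold change of the 10 genes was 0.82 in WT, 0.67 in ΔEGFR and 0.68 averaged, against −0.03, −0.02 and −0.02 over all genes tested. With library totals as the only scaling, the median over all genes moved to 0.40, 0.44 and 0.43, and that of the 10 genes to 1.28, 1.12 and 1.13, with 3, 3 and 8 of the 10 called, where 15.8%, 6.56% and 36.9% of all genes were. With limma on log2(TPM + 1), which carries no TMM factor, the median over all genes was likewise above 0, at 0.28, 0.31 and 0.30. The WT groups did not overlap for 3 of the genes, Cdkn1a, Bax and Phlda3, all higher with CCl4 (12.1% of all genes). In ΔEGFR they did not overlap for 6, Mdm2, Ccng1, Bax, Phlda3, Eda2r and Zmat3, again all higher with CCl4 (12.3% of all genes). Over both genotypes together this held for 1, Bax (3.64% of all genes).

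Markers of several other cell types moved with the treatment in the same libraries. Of the 15 macrophage markers 8 rose and 0 fell in the averaged comparison (median log2 fold change 1.96), as did 5 of 13 stellate cell markers (median 1.53), and 8 of 12 hepatocyte markers fell (median −0.83). Of all genes 12.0% rose and 15.1% fell. Called higher were 2 of 12 endothelial (median 0.48), 3 of 8 cholangiocyte (1.03), 1 of 7 B cell (1.20) and 3 of 9 neutrophil markers (−0.05). Of 10 T and NK cell markers 0 were called (median −0.47). With the other-cell score as a covariate, 1 of the 10 genes was called in the averaged comparison, Bax (0.67 ± 0.19, adjusted p = 0.0428), and 8.21% of all genes. In that fit Phlda3 was at 0.82 ± 0.70 (adjusted p = 0.522), Zmat3 at 0.62 ± 0.24 (adjusted p = 0.125), Mdm2 at 0.16 ± 0.15 (adjusted p = 0.558) and Ccng1 at 0.18 ± 0.14 (adjusted p = 0.477). Cdkn1a was at 0.77 ± 0.90 (adjusted p = 0.657), against 1.78 without the covariate, Eda2r at 0.34 ± 0.54 (adjusted p = 0.752), against 1.10, and Trp53inp1 at 0.34 ± 0.33 (adjusted p = 0.586), against 0.61. Gdf15 was at 1.22 ± 1.01 (adjusted p = 0.511), against 0.74, and Btg2 at −0.38 ± 0.55 (adjusted p = 0.733), against −0.06. Bax kept its WT call too (0.94 ± 0.25, adjusted p = 0.0491), where 4.58% of all genes were called. The score separated the treatments except for WT mineral oil replicate 1, so treatment and other-cell transcripts can hardly be told apart, and the part of the other cells in these results was not tested.

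Among the mineral oil libraries, WT replicates 2 and 3 and ΔEGFR replicate 4 were low for many of the 10 genes. WT replicate 3 was the lowest of the 8 mineral oil libraries for 5 genes (Mdm2, Ccng1, Bax, Phlda3 and Trp53inp1) and among the lowest 3 for 9. WT replicate 2 was among the lowest 3 for 7 and ΔEGFR replicate 4 for 5. At the other end, WT replicate 4 had the highest average of the 10 genes (standardized level 0.14), was among the highest 2 for 5 genes and was never among the lowest 3. ΔEGFR replicate 3 was the highest for Cdkn1a, Ccng1, Phlda3 and Zmat3 but the lowest for Btg2, and WT replicate 1 was the highest for Mdm2, Trp53inp1 and Btg2 and the lowest for Gdf15 and Zmat3. The 3 low libraries were also those with the lowest other-cell scores, 0.30, −0.47 and −0.33. Their standardized levels, averaged over the 10 genes, were −1.13, −1.51 and −0.68, against −0.59 to 0.14 in the other mineral oil libraries and 0.33 to 0.91 in the CCl4 libraries. In WT mineral oil replicate 1 the highest other-cell score, 4.28, stood beside an average of −0.59. The part of the other cells in this order was not tested.

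**Figure D3:**
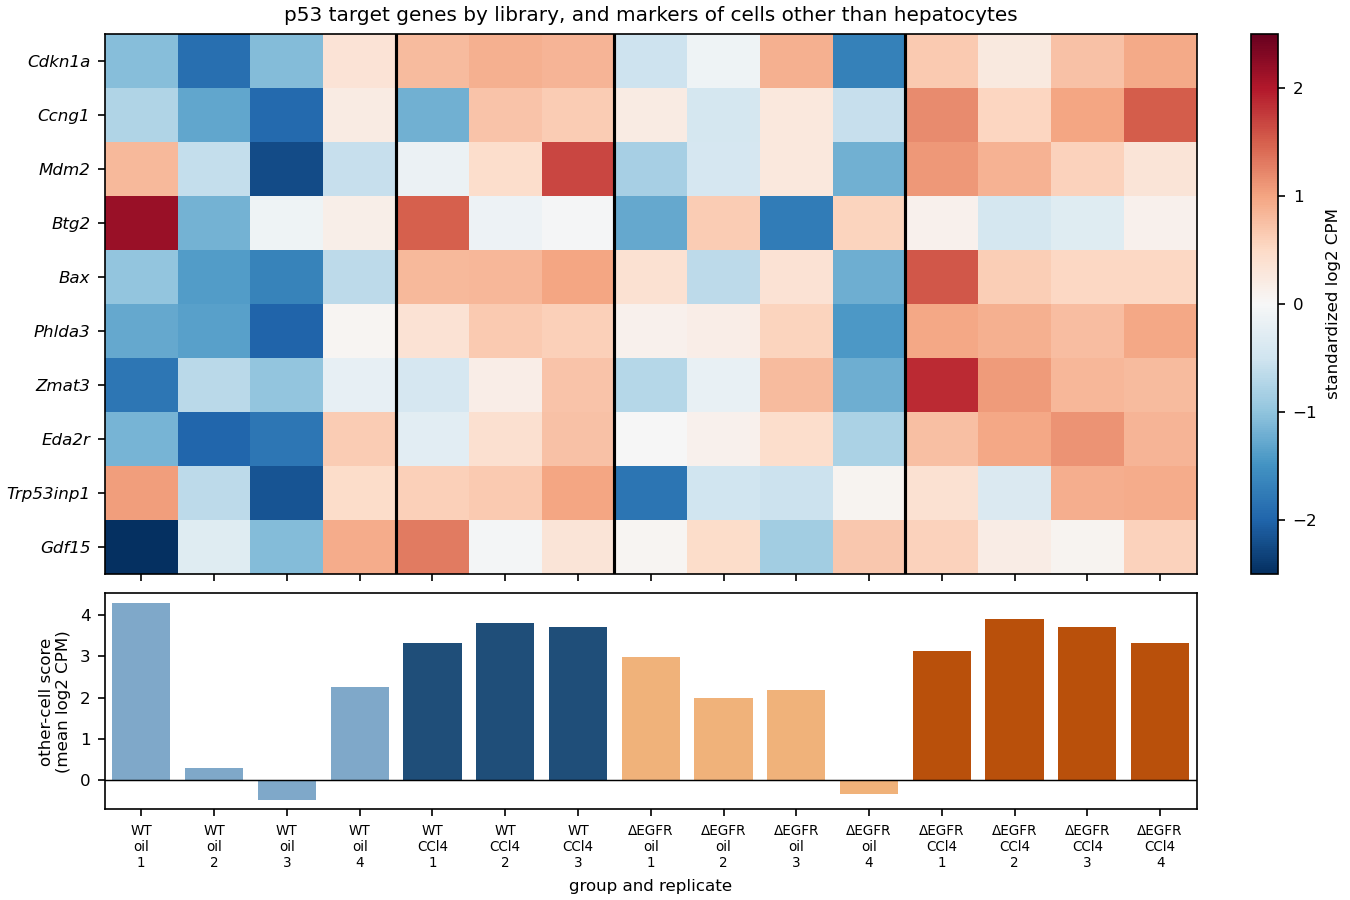
Standardized log2 CPM of the 10 genes (upper panel, rows are genes, columns are libraries, red above and blue below the mean of 15 libraries) over the other-cell score of the same libraries (lower panel, mean log2 CPM of all markers of cells other than hepatocytes). WT mineral oil replicates 2 and 3 and ΔEGFR mineral oil replicate 4 are blue for most genes and have scores between −0.47 and 0.30.

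Over all 15 libraries 8 of the 10 genes had a Pearson's r of at least 0.59 with the mean of the other 9. Within a treatment r was lower for most of them. Pearson's r between the log2 CPM of a gene and that mean, across the 15 libraries, was 0.92 for Phlda3, 0.89 for Eda2r, 0.86 for Bax, 0.85 for Cdkn1a, 0.81 for Ccng1, 0.75 for Zmat3, 0.73 for Mdm2 and 0.59 for Trp53inp1, but 0.37 for Gdf15 and −0.09 for Btg2. The 15 libraries cover both treatments, so this r includes the difference between them. The share of all genes that reach such an r was not counted. Within the 8 mineral oil libraries r was 0.92 for Eda2r, 0.89 for Ccng1, 0.85 for Phlda3, 0.73 for Cdkn1a, 0.65 for Bax, 0.47 for Mdm2 and for Zmat3, 0.30 for Trp53inp1, 0.13 for Gdf15 and −0.24 for Btg2. Within the 7 CCl4 libraries it was 0.60 for Zmat3, 0.57 for Phlda3, 0.44 for Ccng1, 0.38 for Mdm2, 0.37 for Bax and for Eda2r, 0.09 for Cdkn1a and for Trp53inp1, −0.34 for Gdf15 and −0.59 for Btg2. Gdf15 and Btg2 had the lowest r in each case. These values describe libraries that also share their differences in other-cell transcripts. The genes outside the set whose log2 CPM most resembled the mean of the 10 were the unnamed ENSMUSG00000118667 (r = 0.958), Tmem151a (0.938), Eln, Sytl5 and Fsd2 (0.937 each). Eln encodes elastin, a matrix protein, and was at 0.0673 to 0.977 CPM in mineral oil and 2.45 to 5.22 CPM in CCl4. For Cdkn1a alone the most alike were Smarcd1 (0.952), a subunit of chromatin remodelling complexes, Tubb5 (0.951), a β-tubulin, Parm1 (0.939), Larp7 (0.936) and Vsig8 (0.933).

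Between the genotypes none of the 10 genes was called, while 3 lay higher in ΔEGFR without overlap in CCl4. In mineral oil 0 of the 10 were called between ΔEGFR and WT with edgeR, DESeq2 or limma (background 0% with each), and 1, Bax, had an unadjusted p under 0.05 (6.66% of all genes did). Bax was at 22.4 ± 6.99 CPM in ΔEGFR and 15 ± 2.85 CPM in WT, a log2 difference of 0.58 ± 0.22 (adjusted p = 0.713). The groups overlapped for all 10 (1.44% of all genes lay higher without overlap). The other differences ran from −0.83 ± 0.65 for Btg2 to 1.65 ± 0.78 for Phlda3, with a median over the 10 of 0.38 against −0.01 over all genes. Without ΔEGFR mineral oil replicate 3 that median was 0.14 (0.14 to 0.55 over left-out libraries). In CCl4 0 of the 10 were called with any of the 3 tools (background 0% with edgeR and limma and 0.0111% with DESeq2), 0 had an unadjusted p under 0.05 (2.29% of all genes did), and the median was −0.01 against −0.01. There the 4 ΔEGFR libraries lay above the 3 WT libraries without overlap for Phlda3 (0.66 ± 0.82), Eda2r (0.69 ± 0.65) and Zmat3 (0.49 ± 0.25), each with an adjusted p of 1, and 2.68% of all genes did the same. The interaction, which asks whether CCl4 acted unlike in the genotypes, called 0 of the 10 with any of the 3 tools (background 0% with edgeR, 0.0111% with DESeq2 and 0.00556% with limma, and 0 at an unadjusted p under 0.05, where 3.16% of all genes were). Its estimates ran from −1.42 ± 1.3 for Cdkn1a to 0.23 ± 0.55 for Trp53inp1, and that of Bax was −0.60 ± 0.33 (adjusted p = 1). With such standard errors the genotypes cannot be called alike, and for Cdkn1a, Phlda3 and Gdf15 differences of several-fold were not detectable here. Most ΔEGFR libraries were also deeper than most WT libraries, so genotype and depth cannot be fully told apart.

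Other p53 targets were called in both directions at shares near those of all genes. Of 32 listed 31 were tested (Rprm, a cell-cycle inhibitor, had too few counts), and in the averaged comparison 5 rose and 5 fell (12.0% and 15.1% of all genes did), with a median log2 fold change of 0.47 against −0.02 over all genes. Rap2b, a small GTPase, rose by 2.25 ± 0.49 (adjusted p = 0.00543), from 1.11 to 13.6 CPM in the mineral oil libraries to 16.9 to 44.6 CPM in the CCl4 libraries. Sesn1, a sestrin that damps mTORC1 signalling, rose by 0.74 ± 0.15 (adjusted p = 0.00331), and the cytokine gene Lif rose by 3.09 ± 0.69 (adjusted p = 0.00611) from a low level, at most 0.323 CPM in mineral oil. The metabolic enzyme Dcxr fell by 1.33 ± 0.17 (adjusted p = 0.000353), from 40.7 to 81.0 CPM to 16.8 to 39.4 CPM. Xpc (−0.47 ± 0.11, adjusted p = 0.00954) and Ercc5 (−0.38 ± 0.10, adjusted p = 0.0116), both of nucleotide excision repair, fell as well. In WT 1 rose, Sesn1 (0.75 ± 0.21, adjusted p = 0.0382), and 3 fell, Dcxr (−1.63 ± 0.25, adjusted p = 0.00390), Xpc (−0.62 ± 0.17, adjusted p = 0.0313) and Ercc5 (−0.50 ± 0.14, adjusted p = 0.0382), with a median of 0.52. In ΔEGFR 0 rose and 1 fell, Dcxr (−1.02 ± 0.22, adjusted p = 0.0308), with a median of 0.65. Of all genes 5.31% rose and 7.20% fell in WT, and 1.77% and 2.38% in ΔEGFR.

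The mRNA of p53 itself and most of its regulators did not pass. Trp53 ran from 15.7 to 31.7 CPM in the mineral oil libraries and from 24 to 30.8 CPM in the CCl4 libraries, so the groups overlapped, and its averaged log2 fold change was 0.22 ± 0.14 (adjusted p = 0.265). The p53 protein is controlled mainly by its stability, which these data do not measure. Of the 22 listed regulators 20 were tested (Trp63 and Trp73, the relatives of p53, had too few counts), and averaged 2 rose and 1 fell (12.0% and 15.1% of all genes), with a median of 0.13. Cdkn2a, whose Arf product inhibits Mdm2, rose by 2.86 ± 0.55 (adjusted p = 0.00285) at very low levels, 0 to 0.141 CPM in mineral oil and 0.185 to 0.881 CPM in CCl4. Chek2, a kinase of the DNA damage checkpoint, rose by 0.78 ± 0.26 (adjusted p = 0.0416), and Cop1, a ubiquitin ligase for p53, fell (−0.26 ± 0.07, adjusted p = 0.0181). In WT Cdkn2a rose (2.81 ± 0.80, adjusted p = 0.0366) and the damage kinase Atm fell (−0.71 ± 0.22, adjusted p = 0.0496), where 5.31% of all genes rose and 7.20% fell. In ΔEGFR none of the 20 was called with edgeR, and 3 had an unadjusted p under 0.05, where 24.7% of all genes did. Mdm4, which blocks the activation domain of p53, was at −0.66 ± 0.30 in WT (adjusted p = 0.164) and 0.02 ± 0.27 in ΔEGFR (adjusted p = 0.976).

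Other stress programmes that share members with the p53 response were listed beside it. Of 12 genes of the integrated stress response, through which Gdf15 is also induced, 5 rose and 1 fell in the averaged comparison (12.0% and 15.1% of all genes), with a median of 1.27. Ddit3, the factor CHOP, rose by 1.83 ± 0.31 (adjusted p = 0.00144), with 9.04, 2.71, 3.55 and 6.28 CPM in WT mineral oil, 26.8, 13.9 and 35.5 CPM in WT CCl4, 5.58, 7.56, 14.1 and 7.34 CPM in ΔEGFR mineral oil and 35.2, 22.6, 17.0 and 18.5 CPM in ΔEGFR CCl4. The serine synthesis genes Psat1 (3.07 ± 0.52, adjusted p = 0.00142) and Phgdh (3.15 ± 0.77, adjusted p = 0.00959), the lipoprotein receptor Vldlr (2.98 ± 0.53, adjusted p = 0.00179) and the hormone Fgf21 (2.34 ± 0.80, adjusted p = 0.0440) rose, while the glutathione-degrading Chac1 fell (−1.3 ± 0.36, adjusted p = 0.0183). In WT Ddit3, Psat1 and Vldlr rose and 0 fell, with a median of 1.06 (5.31% of all genes rose and 7.20% fell). In ΔEGFR Vldlr alone was called, higher, with a list median of 1.04 (1.77% of all genes rose and 2.38% fell). The levels of Vldlr were low, 0.0410 to 0.365 CPM in the mineral oil libraries and 0.575 to 3.65 CPM in the CCl4 libraries. Fgf21 overlapped between the treatments, at 0.112 to 12.5 CPM in mineral oil and 2.23 to 15.8 CPM in CCl4. Of 13 immediate early genes, to which Btg2 is close in its induction, 0 were called with edgeR in WT, in ΔEGFR or averaged, with medians of 0.62, −0.18 and 0.19. At an unadjusted p under 0.05 there were 0, 1 and 2, where 28.9%, 24.7% and 39.6% of all genes were. Fos (0.56 ± 0.51, adjusted p = 0.439), Egr1 (0.03 ± 0.42, adjusted p = 0.962) and Atf3 (1.6 ± 0.67, adjusted p = 0.0937, also in the integrated stress response list) did not pass averaged. No gene of these 4 lists was called between the genotypes or in the interaction with edgeR, where 0 of all 17975 genes were, so this says nothing particular about the lists.

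**Figure D4:**
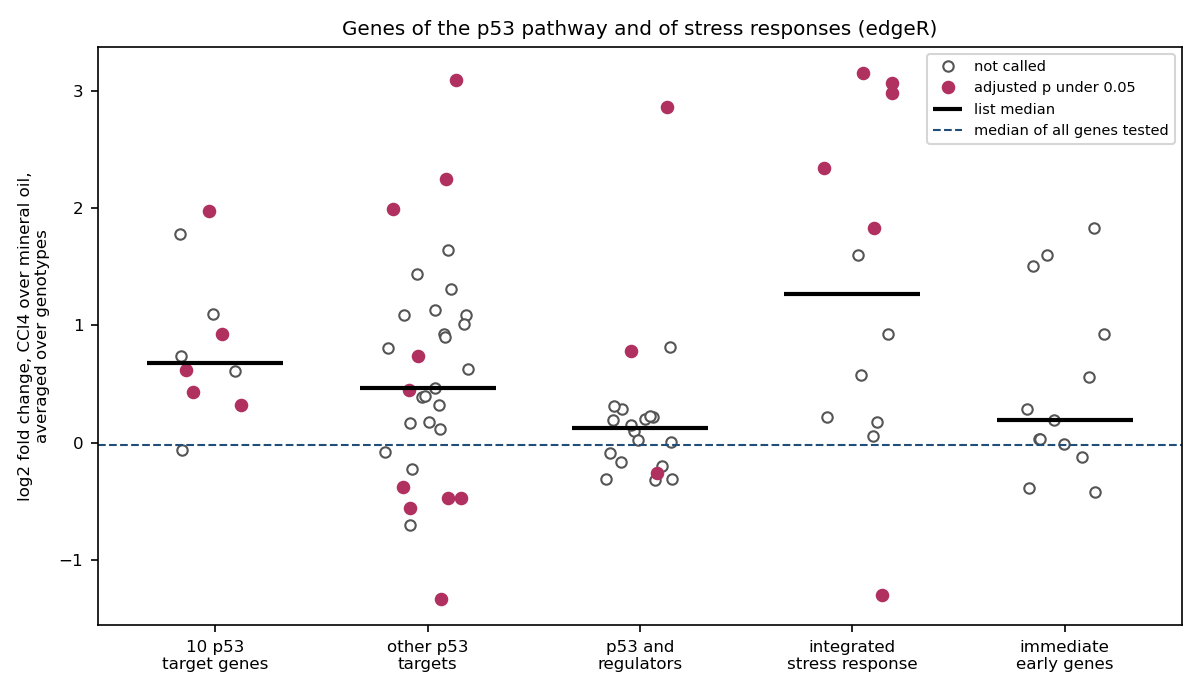
Log2 fold change of CCl4 over mineral oil, averaged over both genotypes, for each tested gene of the 10 p53 target genes, 31 other p53 targets, 20 genes of p53 and its regulators, 12 integrated stress response genes and 13 immediate early genes. Filled points have an adjusted p under 0.05, black bars are list medians (0.68, 0.47, 0.13, 1.27 and 0.19) and the dashed line is the median of all genes tested (−0.02).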

How the data were processed

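Hepatocyte RNA was isolated with RNA STAT 60 and made into libraries with a KAPA stranded mRNA kit, per the labels' protocols. The submitters' processing notes name STAR 2.7.8a, RSEM 1.3.0 and the build GRCm39; the annotation release and use of strand are not given in the sources used here. The authors deposited RSEM expected counts and TPM per gene and library; the expected counts (51.7 to 155.4 M per library) were rounded here and tested, and the deposited TPM served for levels between genes and for limma on log2(TPM + 1). Reads carry no molecular identifiers, so precision is that of the replicates.

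Symbols were joined by Ensembl ID from an annotation table of mouse genes (52029 of 56953 IDs matched, 91.4%), and exon overlaps came from an annotation of another build. Groups came from the labels' condition and treatment, and replicates were numbered in order of deposit. The 10 genes and all lists were chosen with earlier results of these data known, and no pattern already seen in them is independent support.

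Genes were filtered with filterByExpr (minimum count 10, minimum total 15) and scaled with TMM. edgeR 4.0.16 in R 4.3.3 fitted 1 mean per group to all 15 libraries by robust quasi-likelihood (biological coefficient of variation 50.9%), with two-sided tests and Benjamini-Hochberg adjustment over 17975 genes, called at an adjusted p under 0.05. The code of the tests was also run on simulated counts. These held no outlying libraries and no differences in cell content, so they do not show how reliable the calls here are. Comparisons were CCl4 against mineral oil in WT, in ΔEGFR and averaged over both, the genotypes against each other in each treatment, and their interaction with it. CPM use TMM-scaled totals, and log2 CPM a prior count of 2. Named genes are the 10, up to 6 called genes per list and comparison by lowest adjusted p, Trp53, Mdm4, Ddit3, Atf3, Egr1 and Fos, and the 5 genes most like the mean of the 10 and like Cdkn1a by Pearson's r. Alternatives were RLE, upper-quartile and no scaling factors, DESeq2 1.42.0, limma 3.58.1, no filter, a minimum of 1 CPM in 3 libraries, the compared groups alone, covariates for other-cell score or depth class, and leaving out each library. Motifs were searched on both strands of RefSeq promoter windows; chromosome 18 was not used.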

Additional observations from a re-analysis of the deposited data

Results flagged for a closer look

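Among the 10 genes in the groups of 4 libraries, 1 value stood far from the rest of its group on the scale of log2 CPM. It was Bax in ΔEGFR CCl4 replicate 1, at 46.4 CPM, against 31.6, 30.2 and 30.2 CPM in the other 3. On log2 CPM it exceeded Dixon's critical value for 4 samples. Of 30 groups tested 1.5 would exceed it by chance, about 1 in 20. Without this library Bax was at 0.84 ± 0.15 averaged (adjusted p = 0.00371 with edgeR) and stayed called. On CPM without logarithm, WT mineral oil replicate 4 also lay far above the rest of its group for Cdkn1a, Phlda3 and Eda2r. It was at 55.9 against at most 8.98 CPM, 3.81 against at most 0.654 CPM and 5.67 against at most 1.26 CPM.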

How the results depend on the processing

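The median over the 10 genes stayed above 0 for CCl4 in WT (0.44 to 1.28 over all alternatives), in ΔEGFR (0.37 to 1.12) and averaged (0.48 to 1.13, of which 1.13 without a scaling factor and 1.10 with limma). Bax kept its call under all 25 alternatives in WT (adjusted p 6.02e-05 to 0.0491) and all 24 averaged (1.36e-06 to 0.0428). Phlda3 and Zmat3 kept their averaged calls except with the other-cell covariate (adjusted p up to 0.522 and 0.125), while Mdm2 lost its call under 13 and Ccng1 under 12 of 24. In WT the number called was 3 without a scaling factor (Ccng1, Bax and Phlda3), 3 with DESeq2 (Cdkn1a, Bax and Phlda3), 4 with limma and 1 to 4 over left-out libraries, reaching 2 without WT mineral oil replicate 1 or ΔEGFR mineral oil replicate 4 and 4 without WT mineral oil replicate 4 (Cdkn1a, Bax, Phlda3 and Eda2r). In ΔEGFR it was 3 without a scaling factor, 2 with DESeq2, 5 with limma and 0 to 1 over left-out libraries (1 without ΔEGFR mineral oil replicate 3). Averaged it was 7 with DESeq2 (33.4% of all genes called), 8 without a scaling factor (36.9%), 9 with limma (41.5%), 1 with the other-cell covariate (8.21%) and 3 to 6 over left-out libraries. It was 3 (Bax, Phlda3 and Zmat3) without any 1 of WT mineral oil replicates 2 and 3, WT CCl4 replicates 2 and 3, ΔEGFR mineral oil replicates 1, 2 and 4 and ΔEGFR CCl4 replicates 1, 2 and 3. Btg2 changed sign. In WT it was at 0.15 without a scaling factor, 0.67 with limma, 0.18 with the depth class covariate and −0.75 to 0.85 over left-out libraries. In ΔEGFR it was at −0.47 with the other-cell covariate and −0.28 to 0.41 over left-out libraries. Averaged it was at 0.32 without a scaling factor, 0.00 without a low-count filter, 0.75 with limma, 0.20 with the depth class covariate and −0.34 to 0.43 over left-out libraries. Gdf15 in ΔEGFR was at −0.09 without ΔEGFR mineral oil replicate 3 (−0.09 to 0.57 over left-out libraries). The causes were not tested. Genotype comparisons and interaction called 0 of the 10 under every alternative run. The averaged comparison and the interaction need all 4 groups and were not rerun with the compared groups alone. On TPM in place of CPM, which carries no TMM factor, the log2 ratio of mean levels moved by more than the replicate spread for Mdm2 (0.91 in WT and 0.96 in ΔEGFR), Ccng1 (0.81 and 0.87), Bax (1.74 and 1.17) and Zmat3 (1.12 and 1.2). No paired analysis was possible because the labels give no replicate numbers, animals or days that link libraries of different groups.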
